A study of Rattus norvegicus with 6 samples.

Results

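Expression of the muscle acetylcholine receptor genes was measured in neonatal rat ventricular myocytes, primary heart muscle cells, that had received either an siRNA targeting uc.323 (si-uc.323) or a scrambled control siRNA (si-scramble). The 10 genes were chosen by name, with their measured values known: Chrng, Chrna1, Chrnb1, Chrnd and Chrne, which encode the subunits of the muscle nicotinic receptor, Chrm2, which encodes the main muscarinic receptor of the heart, Musk, Rapsn and Agrn, which act in receptor clustering, and Ache, which encodes acetylcholinesterase. Chrng was selected on its difference between the groups, so all values of these genes in that contrast are descriptions and carry no test. The genes were read by 12 of the array's 30367 probes, and 9 of the 10 genes were among the 19916 features compared, a feature being a named gene or a probe without a gene name.

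Each group had 3 cultures, described as independent experiments, with 1 array per culture. All cultures came from male Sprague-Dawley rats aged 1 to 2 days, were depleted of fibroblasts by preplating and were grown with bromodeoxyuridine. They were cultured for 36 h, then received 50 nmol/L of si-uc.323 or si-scramble in serum-free medium for 3 h, and were harvested 24 h after transfection, after 21 h more without serum. The study title names the targets of uc.323 in hypertrophy, a growth in size of cardiomyocytes, as its question. uc.323 is a non-coding RNA copied from a stretch of DNA that several mammals share without a change. Its own level was not analysed here, so the knockdown was not checked.

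The sense strand of the siRNA, as the labels give it without its dTdT overhang, is shown because it defines the treated group.
si-uc.323: gguaaguaauuucagcaau

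The labels name no slide, so arrays that share a scan identifier in the file headers are taken here as 1 slide. By this inference slide 1 held the 3 si-scramble arrays together with si-uc.323 replicate 1, and slide 2 held si-uc.323 replicates 2 and 3. The share of probes well above background was 72.4%, 78.2% and 86.4% on si-uc.323 replicates 1, 2 and 3, and 71.8% to 73.8% on si-scramble arrays. The intensity at the array's 75th percentile was 1718 and 1775 on slide 2 and 1182 to 1381 on slide 1. By both measures the arrays of slide 2 were brighter. Levels are given below as a percentage of the intensity at the array's 75th percentile, and differences as log2 of si-uc.323 minus si-scramble with the standard error (SE) of the fit. Because probes differ in how brightly they bind, the levels of different genes are not ranked. The summed levels of marker lists below are weighted towards the brightest probes and serve only to set the groups side by side. All 8 cardiomyocyte markers (Myh6, Tnnt2, Tnni3, Actc1, Ryr2, Pln, Nppa and Myl2) were well above background on all 6 arrays. Of 10 skeletal muscle markers, 5 were, while Myf6, Pax7 and Cdh15 were not on any array.

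The muscle nicotinic receptor is an ion channel that opens when acetylcholine binds and depolarises the skeletal muscle fibre. Fetal and denervated skeletal muscle uses a receptor with the γ subunit (Chrng), which is replaced by the ε subunit (Chrne) as the synapse matures, while the α1, β1 and δ subunits serve both forms. At that synapse nerve-derived agrin activates the receptor kinase MuSK through Lrp4, and rapsyn anchors the receptors in clusters. In the heart, acetylcholine from vagal nerves acts mainly through the muscarinic receptor encoded by Chrm2, which couples to inhibitory G proteins and to the potassium channel subunits encoded by Kcnj3 and Kcnj5. Transcription of receptor subunit genes in skeletal muscle is known to depend on E-boxes, the sites of myogenic factors such as MyoD and myogenin, and on the N-box, a site for ETS factors in synaptic nuclei.

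The promoters of 9 of the 10 genes were in the RefSeq table of assembly GRCr8, and Rapsn was not matched. Each promoter runs from 250 bases before to 50 after the gene's start. The promoters of the 3 subunit genes whose groups did not overlap (Chrng, Chrne and Chrnd) are shown with that of Chrna1, whose groups overlapped, so that the letters of both can be compared. Capitals mark E-boxes (CANNTG, the same on both strands) and N-boxes (CCGGAA, or TTCCGG when read from the other strand), and no E-box overlapped an N-box. The windows lie at chr9:95325734-95326033 (plus strand) for Chrng, chr10:55834105-55834404 (minus strand) for Chrne, chr9:95310066-95310365 (plus strand) for Chrnd and chr3:78877304-78877603 (minus strand) for Chrna1, and each reads 5′ to 3′ along its gene.
Chrng: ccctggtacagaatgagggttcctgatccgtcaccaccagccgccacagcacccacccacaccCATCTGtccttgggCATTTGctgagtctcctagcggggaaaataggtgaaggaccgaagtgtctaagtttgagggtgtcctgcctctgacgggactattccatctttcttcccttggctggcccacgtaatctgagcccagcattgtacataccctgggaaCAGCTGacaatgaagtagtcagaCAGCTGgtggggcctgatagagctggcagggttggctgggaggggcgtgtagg
Chrne: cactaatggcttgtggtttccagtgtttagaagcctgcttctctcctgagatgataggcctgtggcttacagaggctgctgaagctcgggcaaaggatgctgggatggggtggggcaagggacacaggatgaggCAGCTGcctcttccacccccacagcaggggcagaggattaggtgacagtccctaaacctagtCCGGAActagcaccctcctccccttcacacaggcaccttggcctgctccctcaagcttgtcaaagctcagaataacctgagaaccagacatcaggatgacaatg
Chrnd: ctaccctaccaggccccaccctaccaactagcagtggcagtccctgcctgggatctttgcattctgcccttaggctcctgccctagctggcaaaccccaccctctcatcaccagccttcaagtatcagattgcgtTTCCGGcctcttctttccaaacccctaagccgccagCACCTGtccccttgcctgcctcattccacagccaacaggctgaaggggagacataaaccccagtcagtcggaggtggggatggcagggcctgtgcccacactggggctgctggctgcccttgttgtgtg
Chrna1: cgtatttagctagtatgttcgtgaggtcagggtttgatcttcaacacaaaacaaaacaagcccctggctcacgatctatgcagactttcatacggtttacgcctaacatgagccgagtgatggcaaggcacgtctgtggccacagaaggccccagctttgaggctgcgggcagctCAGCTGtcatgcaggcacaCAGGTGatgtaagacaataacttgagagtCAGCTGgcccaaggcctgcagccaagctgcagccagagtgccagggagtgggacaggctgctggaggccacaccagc

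The Chrng window held 4 E-boxes, and the 2 nearest the start, whose first bases lie at -26 and -3, both read CAGCTG. At least 4 E-boxes were present in 5.79% of 33469 promoters of the same length, and at least 2 CAGCTG in 1.69%. The Chrna1 window held 3 E-boxes, of which 2 read CAGCTG, at -75 and -27. Chrnb1 and Musk also held 3 each, a number reached by 16.6% of promoters. Chrne held 1 CAGCTG E-box at -116, Chrnd held 1 E-box at -79, reading CACCTG, and Ache held 1 at -229, while 72.1% of promoters held at least 1. Chrm2 and Agrn had no E-box in this window. An N-box was found in Chrne at -54, in Chrnd at -115 and in Chrm2 at 15, and in 15.0% of all promoters.

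**Figure D1:**
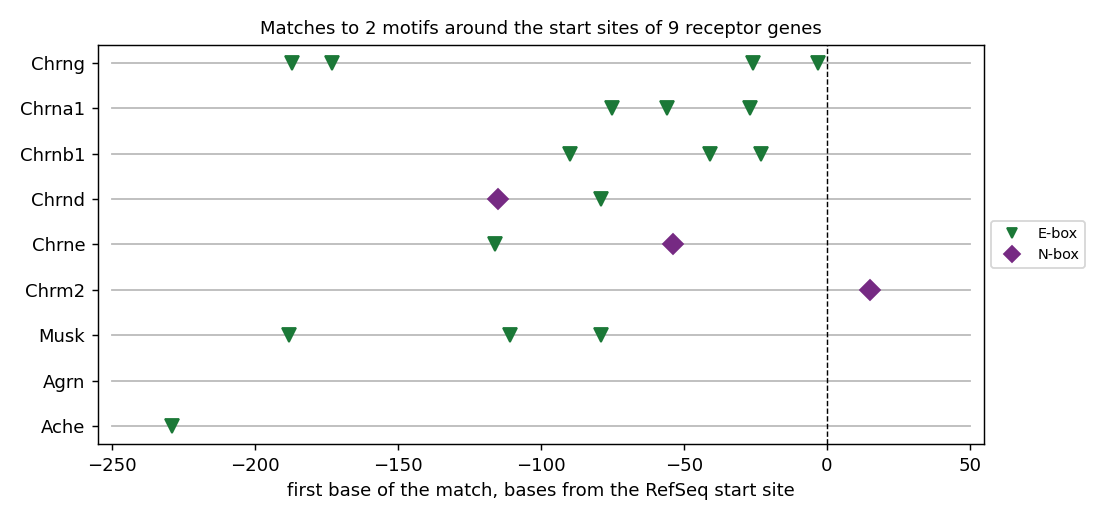
Matches to the E-box (triangles) and the N-box (diamonds) in the promoters of 9 genes, by the distance of the first base of the match from the RefSeq start site in bases, with the start as a dashed line. Chrng has 4 E-boxes, Chrna1, Chrnb1 and Musk have 3 each, and N-boxes occur in Chrnd, Chrne and Chrm2.

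Chrng, the fetal γ subunit, was at 1.93%, 2.17% and 1.66% of the array's 75th percentile in si-uc.323 replicates 1, 2 and 3, and at 6.14%, 5.49% and 6.13% in the si-scramble replicates. All 3 si-uc.323 values lay below all 3 si-scramble values, and the spread inside a group was small beside the distance between the groups. Groups that did not overlap were found for 35.1% of all features. The means were 1.92% ± 0.257 in si-uc.323 and 5.92% ± 0.369 in si-scramble (SD, n = 3 each), a log2 difference of -1.63 ± 0.13 (SE), or a 3.10-fold lower level in si-uc.323. In these bulk samples, fewer cells of a type and less RNA per cell cannot be told apart.

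Chrne, the adult ε subunit, was at 1.66%, 1.37% and 1.40% in si-uc.323 and at 3.45%, 3.18% and 3.80% in si-scramble. Here too the groups did not overlap. The means were 1.48% ± 0.163 in si-uc.323 and 3.47% ± 0.308 in si-scramble (SD, n = 3 each), a log2 difference of -1.24 ± 0.13 (SE), or a 2.36-fold lower level in si-uc.323. The fetal and the adult subunit were thus both lower in si-uc.323.

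Chrnd, the δ subunit found in both receptor forms, was at 1.16%, 0.888% and 1.25% in si-uc.323 and at 1.68%, 1.78% and 1.68% in si-scramble. The log2 difference was -0.66 ± 0.15 (SE), and on this scaled measure the groups did not overlap. Its probe passed the scanner's test against background on 2 of the 3 si-uc.323 arrays, the exception being replicate 1, and on all 3 si-scramble arrays. Chrnd was therefore kept among the tested genes only through si-scramble, the group where it was higher.

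The remaining subunits overlapped between the groups. Chrna1, the acetylcholine-binding α1 subunit, was at 67.8%, 84.4% and 79.2% in si-uc.323 and at 69.8%, 88.2% and 71.5% in si-scramble, a log2 difference of 0.01 ± 0.14 (SE). Chrnb1, the β1 subunit, was at 13.3%, 15.4% and 12.6% in si-uc.323 and at 14.6%, 14.3% and 15.8% in si-scramble, a log2 difference of -0.11 ± 0.12 (SE). The differences of α1 and β1 were smaller than their SE. Whether the subunits differ from each other in their response was not tested, since all belong to the contrast they were chosen on.

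**Figure D2:**
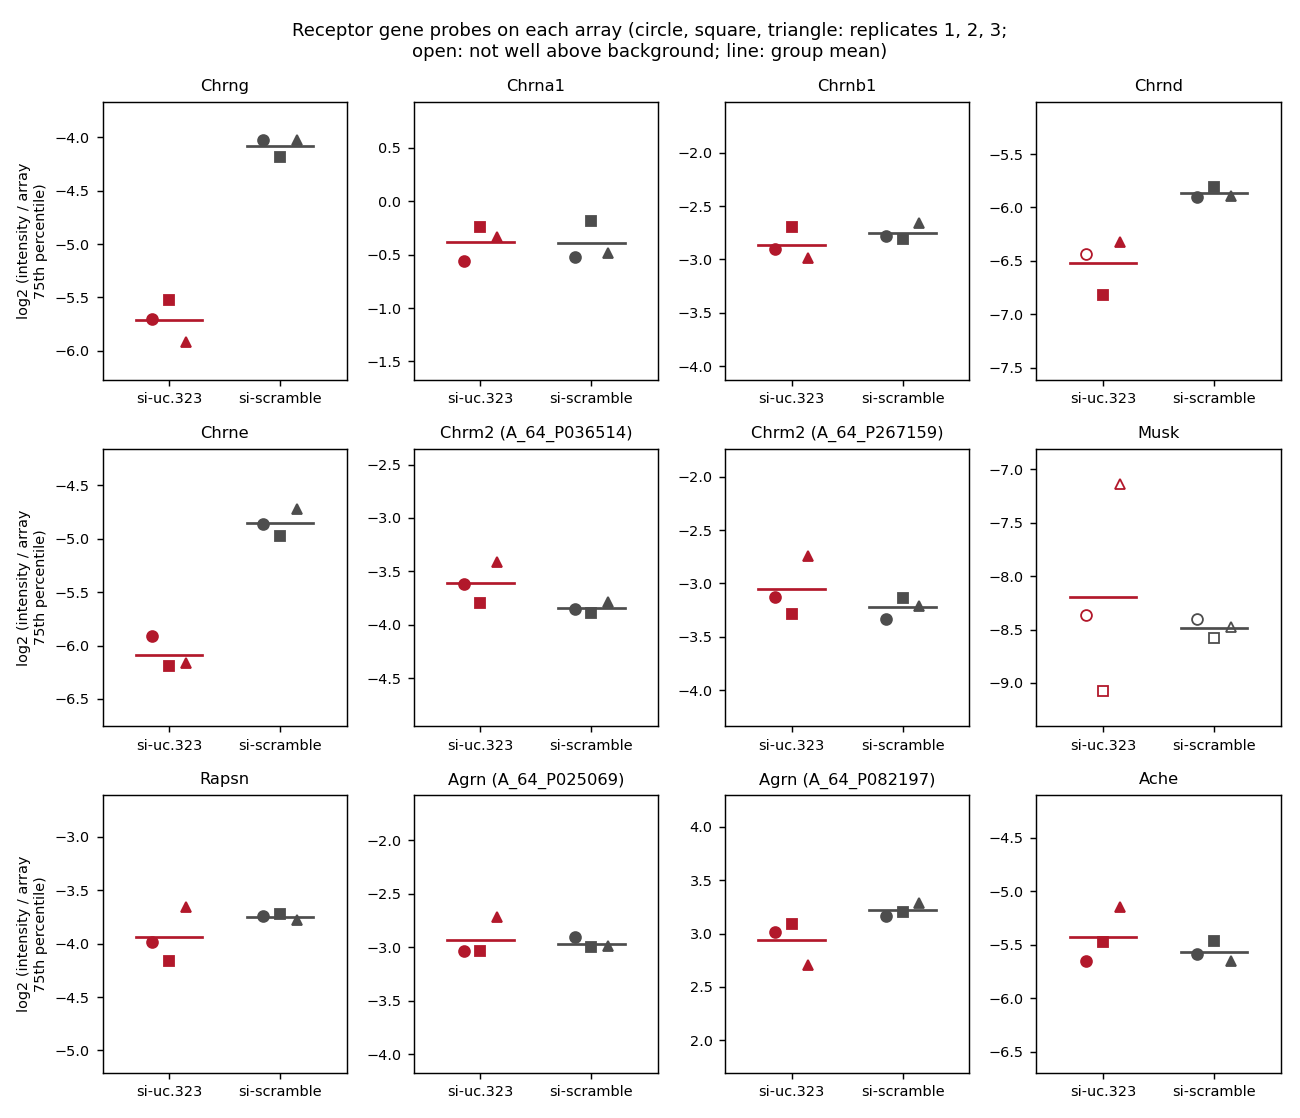
Log2 intensity relative to the array's 75th percentile for the 12 probes of the 10 genes, si-uc.323 left and si-scramble right, with 1 point per array (circle, square and triangle for replicates 1, 2 and 3), open points for spots not well above background and a line at the group mean. All panels span the same height in log2 units, and the groups are apart for Chrng, Chrne, Chrnd and the brighter Agrn probe, while Musk has open points only.

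The 3 probes with the separate groups were dim, so their raw spot medians were set beside the negative-control spots of the same array. For Chrng the raw signal was 89, 88 and 89 scanner units in si-uc.323 and 145, 144 and 142 in si-scramble, and for Chrne it was 96, 79 and 88 in si-uc.323 and 112.5, 108.5 and 113 in si-scramble. The 153 negative-control spots had medians of 64, 48 and 54 on the si-uc.323 arrays and 63, 57 and 63 on the si-scramble arrays, with 95th percentiles of 75, 58.5 and 64 on the si-uc.323 arrays and 71, 65 and 74.4 on the si-scramble arrays. Both probes exceeded those 95th percentiles on every array, and the groups were separate before any background subtraction. For Chrnd the raw signal was 89, 71 and 88.5 in si-uc.323 and 90, 90.5 and 90 in si-scramble. Of its raw values in si-uc.323, 2 lay within 2 units of every si-scramble value, so on those arrays the groups were not apart before background subtraction and scaling.

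Above the negative-control median, Chrng stood at 25, 40 and 35 units in si-uc.323 and at 82, 87 and 79 in si-scramble, and Chrne at 32, 31 and 34 in si-uc.323 and at 49.5, 51.5 and 50 in si-scramble. Chrnd stood at 25, 23 and 34.5 in si-uc.323 and at 27, 33.5 and 27 in si-scramble, so its groups overlapped. Its processed intensities overlapped too, at 14.0, 15.3 and 22.2 in si-uc.323 and 20.1, 24.6 and 19.9 in si-scramble. The Chrnd groups were therefore apart only after scaling to the array's 75th percentile. How a dim signal is corrected set the size of the difference. An offset added to every spot shrinks the log2 difference of a dim probe by construction. With normexp background correction and an offset of 50 the log2 difference was -0.94 for Chrng, -0.59 for Chrne and -0.35 for Chrnd. Within slide 1, where si-uc.323 replicate 1 faced the 3 si-scramble arrays, it was -1.62 for Chrng, -1.06 for Chrne and -0.57 for Chrnd. Over all settings tried, the Chrng difference lay between -0.94 and -1.81. Every setting reuses the arrays on which Chrng was chosen, so its constant sign is a description and no support.

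**Figure D3:**
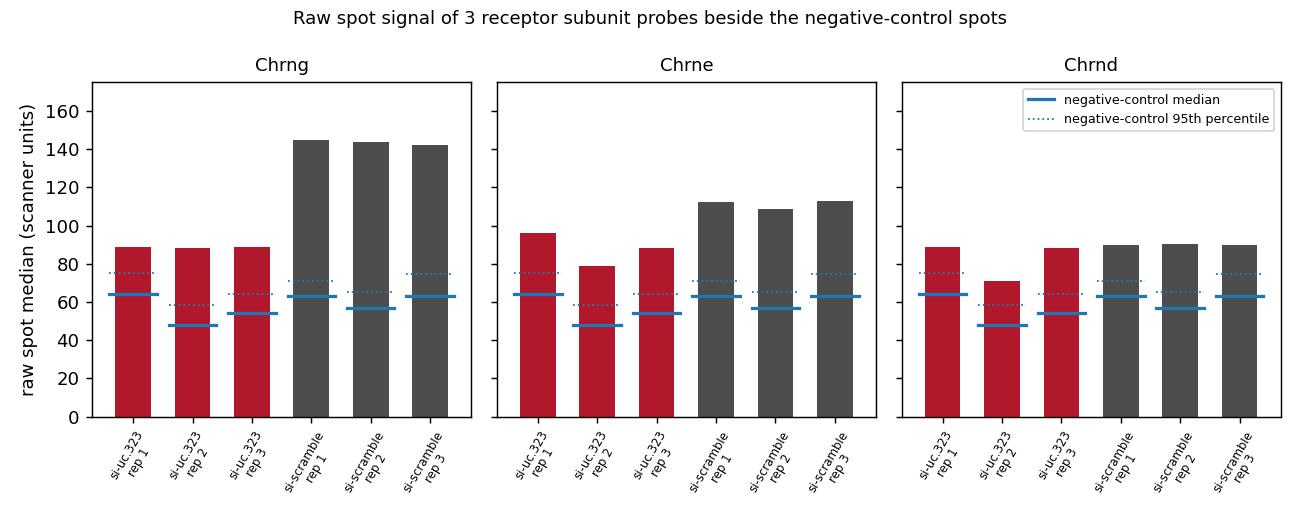
Raw median spot signal in scanner units of the Chrng, Chrne and Chrnd probes on each array (bars, si-uc.323 left of si-scramble), with the median (solid line) and 95th percentile (dotted line) of the negative-control spots of the same array. Chrng bars stand at 88 to 89 in si-uc.323 and 142 to 145 in si-scramble, and the Chrnd bars of si-uc.323 replicates 1 and 3 are level with those of si-scramble.

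**Figure D4:**
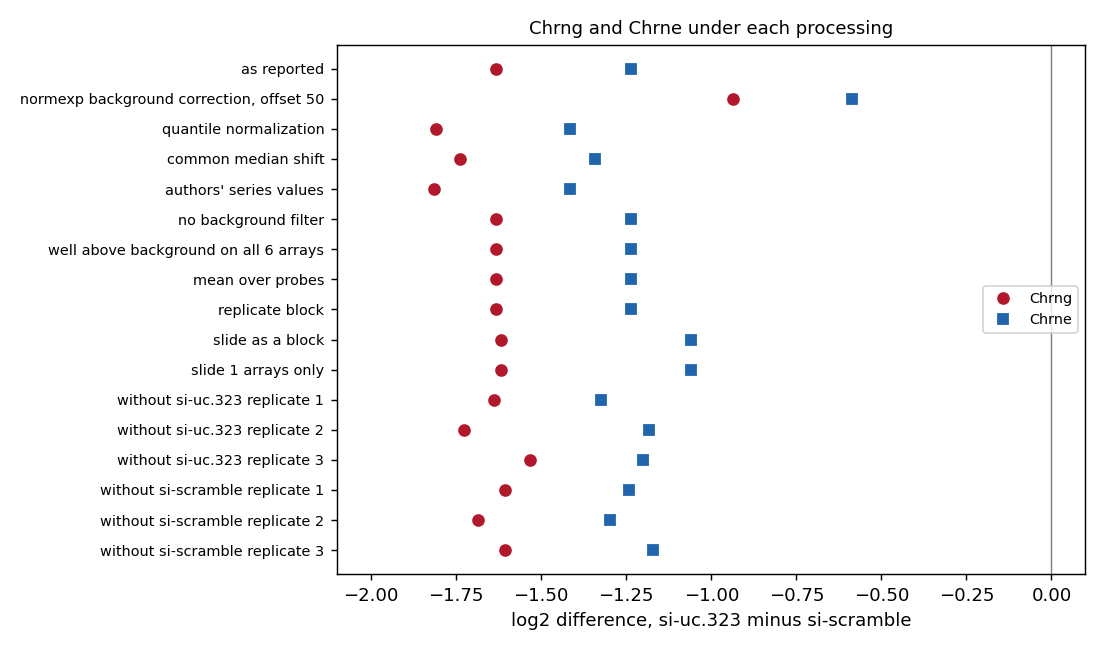
Log2 difference, si-uc.323 minus si-scramble, of Chrng (circles) and Chrne (squares) as reported and under each other processing, including without each array. Every point is below 0, and the smallest difference of both genes is the one after normexp correction.

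Of the genes that cluster the receptor, Agrn, which encodes agrin, had 2 probes that differed in sign. Its brighter probe (A_64_P082197) was at 811%, 851% and 654% in si-uc.323 and at 899%, 920% and 973% in si-scramble, a log2 difference of -0.28 ± 0.13 (SE) with groups that did not overlap. The other probe (A_64_P025069) was at 12.2%, 12.2% and 15.2% in si-uc.323 and at 13.3%, 12.5% and 12.6% in si-scramble, a log2 difference of 0.04, and its groups overlapped. The Agrn values therefore give no single direction. Averaged over both probes the difference was -0.12.

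Rapsn, which encodes the anchoring protein rapsyn, was at 6.31%, 5.59% and 7.92% in si-uc.323 and at 7.46%, 7.59% and 7.27% in si-scramble, a log2 difference of -0.19 ± 0.15 (SE). Its groups overlapped through si-uc.323 replicate 3, which was the highest of all 6 arrays. Musk, which encodes the agrin-responsive kinase, was not well above background on any array, and no difference is given for it.

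Partners of agrin, MuSK and rapsyn outside the 10 genes were tested, with p-values adjusted over all 19916 features by limma. Of 18 such genes tested, 1 was higher and none was lower at an adjusted p under 0.05. Beside the counts of this list and those below, 5.63% of all features passed, and 2.45% passed as lower. Pak1, a kinase that links Rac signalling to the actin skeleton, rose to 24.2%, 27.9% and 24.2% in si-uc.323, against 17.5%, 16.9% and 18.2% in si-scramble (log2 difference 0.53 ± 0.11, limma adjusted p = 0.0445). That call was lost under quantile normalization, a median shift and the authors' series values, where the difference was 0.40 to 0.43 with adjusted p between 0.0815 and 0.097. Rac1, the GTPase upstream of Pak1, had a difference of 0.55 ± 0.16 (limma adjusted p = 0.0884). Lrp4, the agrin co-receptor, was at 10.3%, 5.54% and 11.0% in si-uc.323 and at 5.72%, 4.17% and 4.90% in si-scramble, so its groups overlapped (0.81 ± 0.27, adjusted p = 0.113). After normexp correction the Lrp4 difference was 0.35. Dok7, the cytoplasmic activator of MuSK, had a difference of -0.12 ± 0.12 (adjusted p = 0.56).

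Among 12 tested genes of the dystrophin complex and the synaptic laminins none passed the same test. Col13a1, a transmembrane collagen of the neuromuscular synapse, came nearest at 3.17%, 2.83% and 4.65% in si-uc.323 and 1.53%, 2.00% and 2.04% in si-scramble (0.92 ± 0.21, limma adjusted p = 0.0535). It passed under 6 of the other settings, but after normexp correction its difference was 0.18 (adjusted p = 0.378).

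Ache, which encodes the enzyme that breaks acetylcholine down at synapses, was at 1.98%, 2.25% and 2.83% in si-uc.323 and at 2.08%, 2.27% and 1.99% in si-scramble. The groups overlapped, and the log2 difference was 0.14 ± 0.15 (SE). Its sign was negative within slide 1 (-0.09) and after normexp correction (-0.12). Of 8 other tested genes of acetylcholine synthesis, transport and breakdown, 1 was higher and 1 was lower, both choline transporters. Slc5a7, the high-affinity transporter of cholinergic neurons, fell to 7.34%, 7.86% and 8.14% in si-uc.323, against 14.7%, 15.1% and 15.0% in si-scramble (-0.94 ± 0.10, limma adjusted p = 0.0168). Slc44a1, a choline transporter of many cell types, rose to 11.9%, 8.06% and 13.6% in si-uc.323, against 6.30%, 5.11% and 5.42% in si-scramble (0.97 ± 0.21, limma adjusted p = 0.0447). Its call was lost after normexp correction (0.56, adjusted p = 0.0653).

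Bche, the related butyrylcholinesterase, had a difference of 0.44 ± 0.13 (limma adjusted p = 0.0879), or 0.28 after normexp correction. Chat, the enzyme that makes acetylcholine, was at 1.20%, 1.85% and 1.83% in si-uc.323 and at 2.23%, 2.61% and 1.73% in si-scramble, with overlapping groups (-0.44 ± 0.22, adjusted p = 0.247). Slc5a7 and Chat were also on the marker list of cholinergic and autonomic neurons. Of the 9 markers of that list on the array, 6 were well above background in every sample, and the defining factor Phox2a was in none. Another of its markers, Dbh, the enzyme that makes noradrenaline, fell to 26.2% to 30.2% in si-uc.323, against 44.3% to 47.0% in si-scramble (-0.71, limma adjusted p = 0.026). Th (0.25), Prph (0.11) and Slc18a3 (-0.02) of the same list did not pass. The summed level of the list was 81.3% to 101% in si-uc.323 and 108% to 115% in si-scramble. The part of such cells in the acetylcholine genes was not tested.

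Chrm2 was read by 2 probes, and both had overlapping groups and a positive difference. The brighter (A_64_P267159) was at 11.4%, 10.2% and 14.9% in si-uc.323 and at 9.94%, 11.4% and 10.8% in si-scramble, a log2 difference of 0.17 ± 0.16 (SE). The other (A_64_P036514) was at 8.14%, 7.22% and 9.38% in si-uc.323 and at 6.93%, 6.76% and 7.23% in si-scramble, a log2 difference of 0.23. Si-uc.323 replicate 3 was the highest array for both probes.

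Of 17 tested genes of the other muscarinic receptors and their coupling, 1 was lower and none was higher. Chrm3, a receptor that couples to Gq, fell to 23.3%, 25.5% and 16.6% in si-uc.323, against 35.5%, 39.4% and 38.5% in si-scramble (-0.82 ± 0.17, limma adjusted p = 0.0448). With the replicate number as a block Chrm3 did not pass (limma adjusted p = 0.0526). Chrm4, which couples to inhibitory G proteins as Chrm2 does, was at 3.80%, 4.43% and 4.17% in si-uc.323 and at 5.17%, 5.54% and 5.52% in si-scramble. Its groups did not overlap, but it did not pass (-0.39 ± 0.11, adjusted p = 0.0818). The potassium channel genes Kcnj3 (-0.09 ± 0.13, adjusted p = 0.703) and Kcnj5 (0.15 ± 0.11, adjusted p = 0.392) did not pass. Kcnj5 was at 0.45 (adjusted p = 0.0981) as the mean over its probes. Of 11 neuronal nicotinic subunits only Chrna6 (0.05 ± 0.16, limma adjusted p = 0.86) and Chrnb4 (-0.25 ± 0.14, adjusted p = 0.288) were bright enough to be tested, and neither passed.

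Of the 9 tested genes of the receptor set, 2 passed the fit across all features (Chrng and Chrne), both lower, while 5.63% of all features passed and 2.45% passed as lower. The groups did not overlap for 4 of the 9, against 35.1% of all features. Chrnd is among those 4 and was kept only through the si-scramble arrays. These counts are printed beside their background only, and nothing is read from them, since the genes were chosen on this contrast. The median log2 difference of the 9 genes was -0.19 and that of all features was 0.04. A shift of the arrays to a common median moved the median of all features to -0.06.

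**Figure D5:**
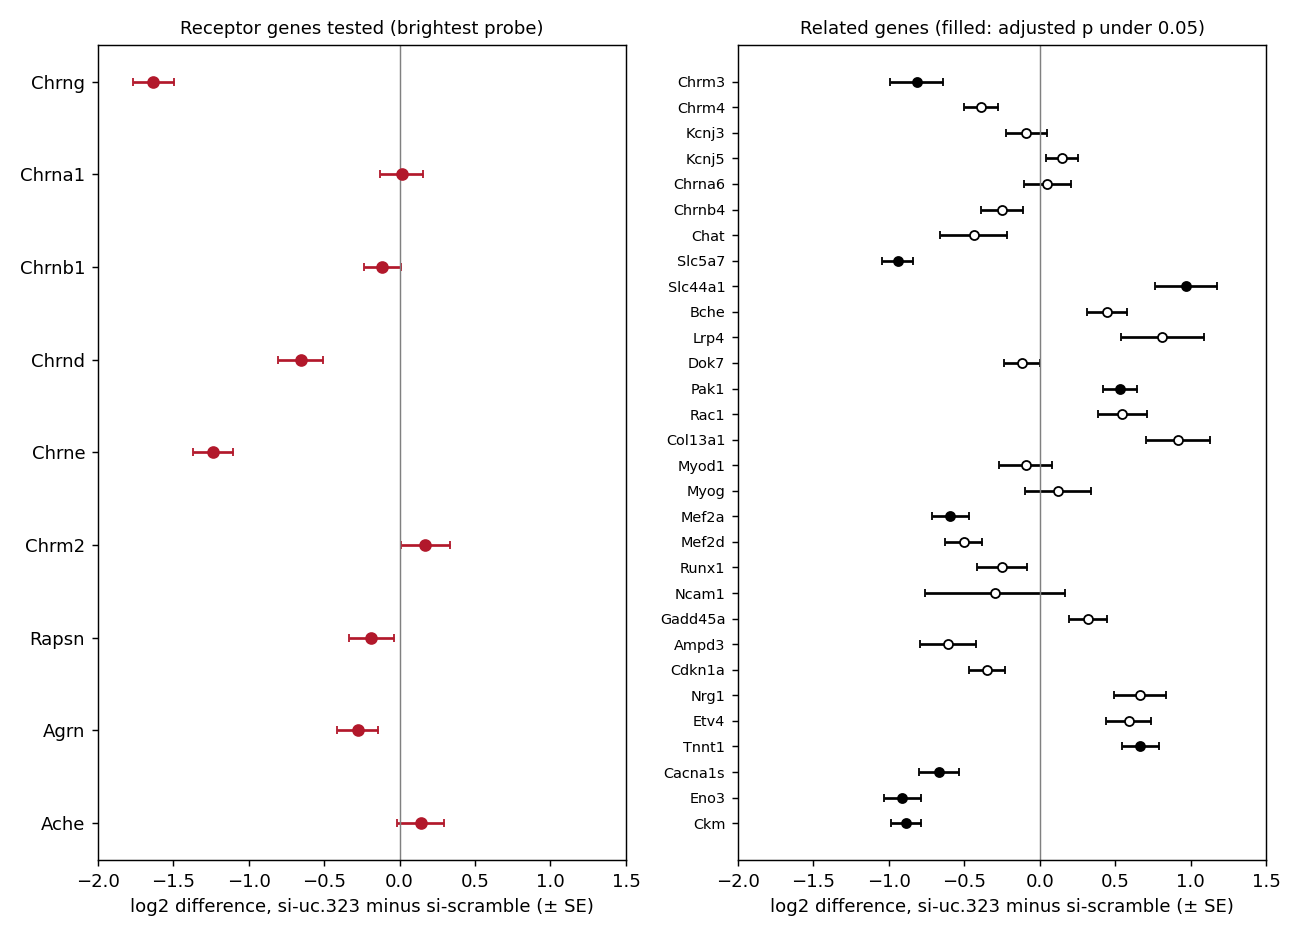
Log2 difference, si-uc.323 minus si-scramble, with its SE for the 9 tested receptor genes (left, brightest probe) and for the genes of the related lists given in the text (right, filled where the limma adjusted p was under 0.05). Chrng, Chrne and Chrnd lie farthest to the left among the receptor genes, and Slc5a7 and Slc44a1 lie on opposite sides among the related genes.

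The related lists held 113 tested genes in all, each counted once, with a median log2 difference of -0.01. Of these genes 3 were higher and 8 were lower, or 9.73%, against 5.63% of all features. With the slide as a block, and within slide 1, none of them and none of the receptor genes passed the threshold. In both of these fits the contrast rests on si-uc.323 replicate 1 alone. Without si-scramble replicate 1, or without replicate 3, no receptor or related gene passed either, and without si-scramble replicate 2 only Chrng did. The values within slide 1 were -1.03 for Slc5a7, 1.09 for Slc44a1, -0.70 for Chrm3 and 0.46 for Pak1.

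The factors that bind E-boxes in skeletal muscle genes were followed next to the subunits. Myod1, which encodes MyoD, was at 1.38%, 1.55% and 1.21% in si-uc.323 and at 1.72%, 1.17% and 1.57% in si-scramble, and Myog, which encodes myogenin, was at 11.3%, 17.4% and 9.93% in si-uc.323 and at 10.3%, 11.7% and 12.5% in si-scramble. Both overlapped between the groups (-0.09 ± 0.18, limma adjusted p = 0.765, for Myod1 and 0.12 ± 0.22, adjusted p = 0.75, for Myog), and Myf6 was not above background on any array. Of 16 tested myogenic regulators and E-box factors, 1 was lower and none was higher. Mef2a, a MADS-box partner of the myogenic factors that is also active in heart muscle, fell to 33.3%, 28.5% and 29.2% in si-uc.323, against 49.5%, 42.0% and 45.8% in si-scramble (-0.59 ± 0.12, limma adjusted p = 0.0417). With the replicate number as a block Mef2a did not pass (limma adjusted p = 0.0608). Its relative Mef2d did not pass (-0.50 ± 0.12, adjusted p = 0.0582).

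In denervated skeletal muscle, Chrng is known to rise together with Runx1, Ncam1 and Gadd45a. Of 9 tested genes of that response none passed in either direction. The differences were -0.25 ± 0.17 for Runx1, -0.30 ± 0.46 for Ncam1 and 0.32 ± 0.13 for Gadd45a (limma adjusted p = 0.364, 0.713 and 0.157). The lowest adjusted p in the list belonged to Ampd3, an AMP deaminase (-0.61 ± 0.19, adjusted p = 0.0934), followed by the cell cycle inhibitor gene Cdkn1a (-0.35 ± 0.12, adjusted p = 0.114).

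Neuregulin acting through ETS factors is known to raise Chrne at the synapse. None of 10 tested genes of that axis passed. Nrg1, which encodes neuregulin 1, had a difference of 0.66 ± 0.17 (limma adjusted p = 0.0654), and the ETS factor gene Etv4 one of 0.59 ± 0.15 (adjusted p = 0.0634). After normexp correction, whose offset shrinks the differences of dim probes, Nrg1 was at 0.21 (adjusted p = 0.371) and Etv4 at -0.0041 (adjusted p = 0.988).

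The embryonic and skeletal muscle isoforms held the most calls of the lists, 1 higher and 5 lower of 21 tested, with a median log2 difference of -0.25. This was also the list with the most tested genes. Of all features 5.63% passed, and 2.45% passed as lower. Ckm, the muscle creatine kinase, fell to 284%, 292% and 286% in si-uc.323, against 543%, 541% and 512% in si-scramble (-0.89 ± 0.10, limma adjusted p = 0.0174). Eno3, the muscle enolase, fell to 113%, 122% and 101% in si-uc.323, against 220%, 215% and 196% in si-scramble (-0.91 ± 0.12, limma adjusted p = 0.0202). Cacna1s, the voltage sensor of skeletal muscle, also fell (-0.67 ± 0.13, adjusted p = 0.039), and Tnnt1, the slow skeletal troponin T, rose (0.66 ± 0.12, adjusted p = 0.0333). The call on Tnnt1 was lost under the median shift (0.56, adjusted p = 0.0622). With the replicate number as a block neither Tnnt1 nor Cacna1s passed (limma adjusted p = 0.0562 and 0.0554). Ckm and Eno3 are both expressed in heart muscle too.

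The 5 genes whose profile over the 6 arrays was most like that of Chrng, among 11110 genes well above background on all of them, were Cmbl (Pearson r = 0.99947), Lrrc24 (0.99931), Txlnb (0.99779), Hist1h2bo (0.99748) and Slc2a12 (0.99744). These values describe 6 arrays in 2 groups, so any gene with tight and well separated groups ranks high. All 5 had negative differences, from -0.62 for Lrrc24 to -1.12 for Cmbl. Chrne had r = 0.97723 with Chrng.

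In RefSeq order Chrnd is the neighbour of Chrng. Of the other named genes within 6 positions of Chrng, Ecel1 (-0.03), Alpi (0.09) and Ngef (0.40) could be tested and none passed (limma adjusted p = 0.935, 0.686 and 0.222). Around Chrne, Pld2 (0.26), Psmb6 (0.34), Slc25a11 (0.03), Rnf167 (-0.12) and Pfn1 (0.18) did not pass (limma adjusted p between 0.181 and 0.898), nor did C10h17orf107 next to Chrne (-0.15, adjusted p = 0.559). The genes at both ends of that window did, Vmo1 (-0.72, limma adjusted p = 0.022) and Eno3. The neighbours were named after the values of Chrng and Chrne had been seen.

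No endothelial or leukocyte marker passed the test, and their members differed in sign. The summed level of 4 endothelial markers was 551% to 855% in si-uc.323 and 1099% to 1241% in si-scramble, mostly from Kdr (-0.76, limma adjusted p = 0.068), while Tek was at 0.46. That of 3 leukocyte markers was 293% to 318% in si-uc.323 and 375% to 385% in si-scramble, mostly from Cd68 (-0.41), while Ptprc (0.06) and Csf1r (0.14) were positive. The 6 fibroblast markers summed to 9973% to 13622% in si-uc.323 and 10569% to 11818% in si-scramble, and of them Postn rose (0.69, limma adjusted p = 0.0312). The 4 smooth muscle markers summed to 3445% to 4151% in si-uc.323 and 3188% to 3658% in si-scramble, with positive differences that did not pass for Tagln (0.63, adjusted p = 0.0569) and Myh11 (0.56, adjusted p = 0.0797). The 6 Schwann cell markers summed to 105% to 119% in si-uc.323 and 109% to 150% in si-scramble, and none passed. The 3 erythroid markers summed to 283% to 371% in si-uc.323 and 332% to 388% in si-scramble, and Hbb fell (-0.61, limma adjusted p = 0.0478). The sum of the 8 cardiomyocyte markers was 22236% to 24470% in si-uc.323 and 26293% to 27569% in si-scramble, but its members differed in sign. Only Actc1 passed (-0.63, limma adjusted p = 0.0314). Tnni3 (-0.34), Ryr2 (-0.46) and Pln (-0.29) were negative, while Myh6 (0.05), Tnnt2 (0.01), Nppa (0.17) and Myl2 (0.01) were positive. The skeletal muscle list summed to 1309% to 1919% in si-uc.323 and 1551% to 1698% in si-scramble, almost all from Pax3. Its myosin gene Myh1 rose to 16.9% to 20.5% in si-uc.323, against 10.7% to 12.3% in si-scramble (0.69, limma adjusted p = 0.0317). The marker genes given here, and Dbh above, were named after their values had been seen. The part of cell composition in the receptor gene differences was not tested. The probe sequences were not used here, and binding of a probe to transcripts of a related subunit was not tested.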

How the data were processed

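Total RNA of 3 si-uc.323 and 3 si-scramble cultures was labelled with Cy3 after amplification and read on 1-colour Agilent arrays, per the labels' protocols. Quantification used Agilent Feature Extraction 11.0.1.1, as the submitters' processing notes state. The scanner files deposited by the authors hold each spot's processed intensity, raw median and flags, with probes placed on build rn4, per the file headers. The authors also deposited a table of log2 values for the series, whose normalization is not given in the sources used here; it served as an alternative only.

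Control spots and flagged outlier spots were left out. Log2 processed intensity was shifted by each array's 75th percentile, and repeated spots were averaged by probe. A probe was kept if every array of either group had it well above background, and the brightest probe stood for a gene. Of 30367 probes, 18005 matched 1 gene through a RefSeq table of GRCr8 and 12362 had no name. The 2 groups were compared in limma 3.58.1 (lmFit and eBayes, R 4.3.3) without covariates, with Benjamini-Hochberg adjustment over 19916 features and a threshold of 0.05. The fit was tested on simulated data. Since the labels do not name separate animals, p-values reflect only how these cultures varied. Precision is limited by the few arrays.

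The members and all gene lists were chosen with earlier results of these data known. All members were named with every probe. Of each of the 9 related lists, the called genes with the lowest adjusted p (up to 4), or the 2 lowest where fewer passed, and a set of nicotinic, muscarinic and denervation genes were named. Some genes that this rule names are not reported here. Promoters and motifs came from RefSeq (GRCr8), and figures were drawn with matplotlib 3.10.9. Alternatives covered background correction, normalization, the filter, the probe rule, the replicate number or the slide as a block, and dropping single arrays.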

Additional observations from a re-analysis of the deposited data

How the results depend on the processing

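The main processing called 1122 features, 2 of the receptor genes and 11 related genes. Under normexp correction 1 receptor gene passed (Chrng, log2 difference -0.94). The Chrng difference was -1.81 under quantile normalization and with the authors' series values, and quantile normalization called 1728 features. With no background filter no feature, receptor gene or related gene passed (0 each, with 5065 features at an unadjusted p under 0.05 by limma). A replicate block called 660 features, 2 receptor genes and 5 related genes. Same-numbered arrays deviated together with r of 0.20, 0.39 and -0.12. Si-uc.323 replicate 1 correlated best with si-scramble replicate 3 (0.48), and replicate 2 with replicate 2 (0.39). These values come from few arrays, so they cannot settle whether same-numbered cultures were paired. The main fit takes the numbers as names only. With the slide as a block 8 features, 0 receptor genes and 0 related genes passed (3135 features unadjusted), and within slide 1 it was 0 of each (5895 unadjusted).

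Leaving out 1 array at a time gave 0 to 2653 features, 0 to 3 receptor genes, 0 to 28 related genes and a Chrng difference of -1.53 to -1.73. The counts were 416, 2653 and 433 features without si-uc.323 replicates 1, 2 and 3, and 0, 19 and 0 without si-scramble replicates 1, 2 and 3 (3814, 4005 and 3390 unadjusted). The receptor genes passing were 2, 3 and 2, and then 0, 1 and 0, and the related genes 3, 28 and 5, and then none in each. Each of these fits had 1 array fewer than the main fit, and so fewer degrees of freedom. What set their counts apart was not tested. Chrng, Chrne and Chrnd had negative differences under every setting tried that gave them a value. These settings reuse the arrays of the contrast the genes were chosen on, so the constant sign is a description only. Signal near the negative-control spots limits the size given for these 3 genes.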
